A study of Mus musculus with 6 samples.

Results

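The 8 genes described here carry lipids into, between and out of cells, and were taken from the deposited features by symbol: Apoe, Cd36, Fabp4, Fabp5, Lpl, Gpihbp1, Abca1 and Lrp1, all 8 of them found among 31055 features. They were followed across the cell classes of the mouse aortic root and ascending aorta, and across the subclusters of vascular smooth muscle cells (VSMCs) and endothelial cells. The study profiled viable sorted aortic cells of female mice on a 129SVE background at 16 weeks of age by droplet-based 3′ single-cell RNA sequencing. The labels list 4 control mice (CTL), 2 of which were Tgfbr1+/+ and 2 Tgfbr1+/+; Wnt2CRE; EGFP-L10a, the latter described as traced for the cardiac neural crest, and 2 mice with Loeys-Dietz syndrome (LDS, Tgfbr1M318R/+). LDS is a hereditary aneurysm disorder of TGF-β signaling, and the allele is carried in every cell of the mouse, while the tracer needs Cre driven by the Wnt2 promoter.

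All cells were deposited as 1 matrix of unique molecular identifier (UMI) counts, in which a barcode suffix separates 6 libraries. No label pairs a suffix with a mouse, so no comparison of CTL with LDS was made. Values are shown for single libraries, or summarized by their median with the lowest and highest library in brackets. The labels list the EGFP tracer in 2 mice, but GFP UMIs were found mainly in 4 libraries, with 263, 201, 157 and 258 UMIs in libraries 1 to 4 against 8 and 6 in libraries 5 and 6. Per the methods, mice of both genotypes were used and some of them carried the tracer. Of 30716 barcodes, 24972 passed the filters on genes, UMIs and mitochondrial share. Libraries 1 to 6 kept 3225, 2859, 5019, 6395, 5611 and 1863 cells, with median depths of 7530, 9838, 6436, 5572, 5814 and 9615 UMIs per cell. In total 76 barcode sequences occurred in more than 1 library, which is 0.547% to 0.717% of the kept cells of a library.

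Triglyceride-rich lipoproteins are hydrolyzed at the endothelial surface by lipoprotein lipase (Lpl), which is made largely by the cells of the surrounding tissue and is carried to the capillary lumen and held there by Gpihbp1. The fatty acids released are taken up with the help of the scavenger receptor Cd36 and are bound inside cells by the fatty acid binding proteins Fabp4 and Fabp5. Apolipoprotein E (Apoe) is the ligand through which remnant particles bind receptors such as Lrp1, an endocytic receptor of many ligands that also acts in smooth muscle of the vessel wall. Abca1 exports cholesterol to lipid-poor apolipoproteins and is known for its role in arterial macrophages.

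Clusters were named from marker genes, and the 8 genes and the wider lipid lists had no part in the clustering. The cells fell into 4 classes, with 13533 fibroblast-like, 10390 VSMC-like, 547 leukocyte-like and 502 endothelial-like cells. The endothelial-like cells were unevenly spread, with 48, 29, 111, 234, 75 and 5 cells in libraries 1 to 6. Levels (CPM) are UMIs of a gene per 1000000 UMIs of a class within a library. The erythroid genes Hbb-bs and Hba-a1 were among the 10 genes that led the endothelial-like cells. Pooled over libraries, they were at 1355 and 477 CPM, against 3.77 and 1.42 CPM in the other cells. The part of that RNA was not tested.

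All 8 genes reached 10 CPM in at least 1 class. Of these, 4 were highest in endothelial-like cells in all 6 libraries, namely Cd36, Fabp4, Fabp5 and Gpihbp1, where 7.48% of the 10514 genes at that level had this pattern. Gpihbp1 reached 10 CPM through endothelial-like cells only, at 1008 CPM pooled over libraries against 1.18 CPM or less in each other class. Its place in this count thus rests on the limit. A further 2, Apoe and Lrp1, were highest in fibroblast-like cells in all 6 libraries, against 7.78% of the genes. Lpl and Abca1 had no class that led in every library.

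**Figure D1:**
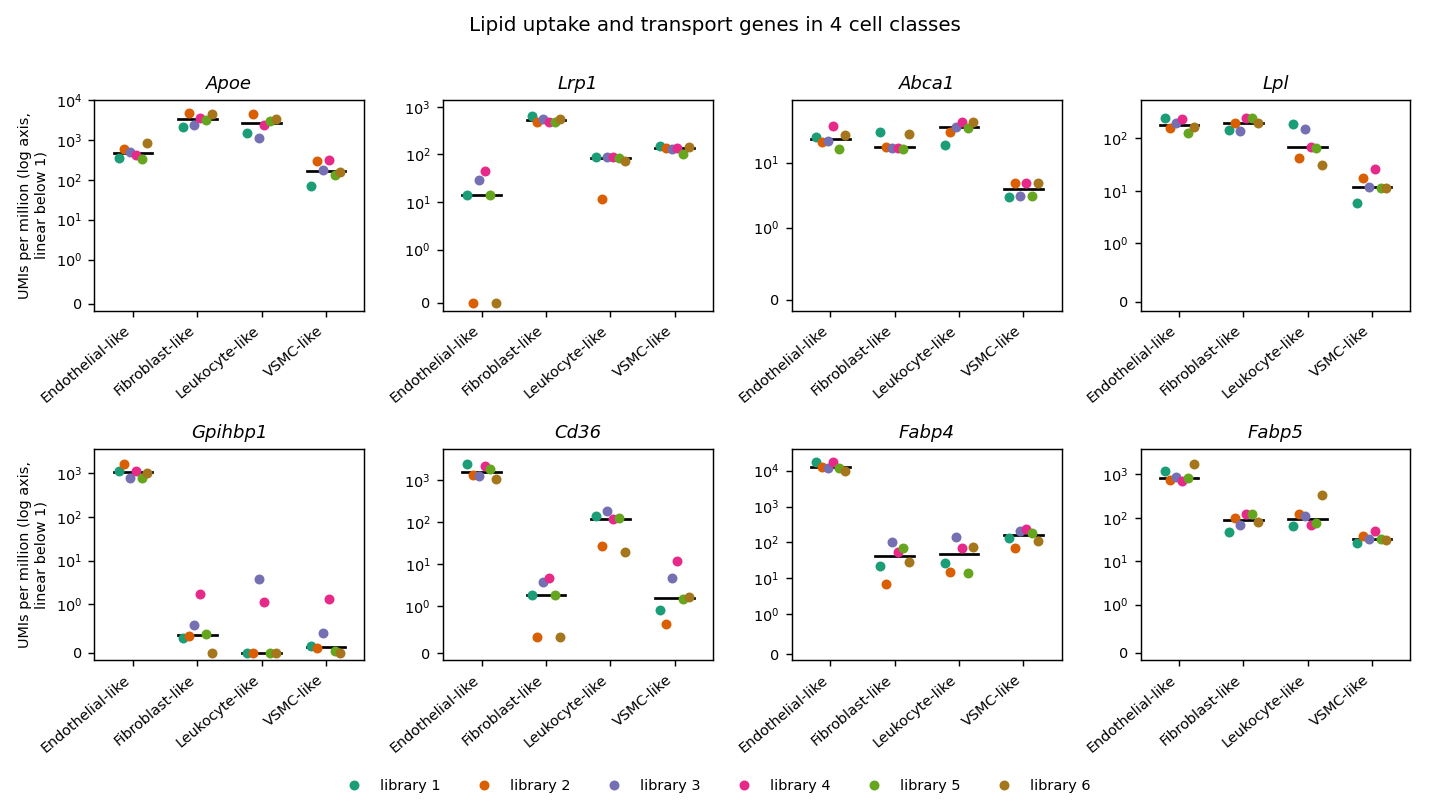
Each point is the level of a gene in 1 of 6 libraries, in CPM on an axis that is logarithmic above 1 and linear below it, and each bar is the median over the libraries. Gpihbp1, Cd36, Fabp4 and Fabp5 had their 6 endothelial-like values above those of the other classes, whereas Apoe and Lrp1 led in fibroblast-like cells.

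Gpihbp1, the endothelial anchor of lipoprotein lipase, had a median of 1053 CPM in endothelial-like cells, with a range of 759 to 1604 CPM. In the other 3 classes its highest value in any library was 3.88 CPM, and the fibroblast-like cells held 66 UMIs of it in 13533 cells. No library departed from this separation. Below the first class the ranges overlapped, but fibroblast-like cells were above VSMC-like cells, which held 26 UMIs, in 5 of 6 libraries. Leukocyte-like cells, with 4 UMIs, could not be placed in this order.

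Lpl had its highest medians in fibroblast-like and endothelial-like cells. The median was 195.5 CPM in fibroblast-like cells, with a range of 136 to 246 CPM, and 177 CPM in endothelial-like cells, with a range of 124 to 245 CPM. The fibroblast-like value was the higher one in 4 of 6 libraries and the ranges overlapped, so these levels did not differ beyond their spread. Leukocyte-like cells had a lower median, 67.4 CPM (31.1 to 191 CPM), but their range overlapped both. Within each of the 6 libraries they were below the endothelial-like cells, whereas in libraries 1 and 3 they were above the fibroblast-like cells. The VSMC-like cells were below all other classes at 11.7 CPM (5.94 to 26.1 CPM).

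Cd36, the fatty acid and scavenger receptor, had a median of 1592 CPM in endothelial-like cells, from 1075 CPM in library 6 to 2477 CPM in library 1. Leukocyte-like cells came next at 121 CPM, from 19.2 to 185 CPM, with no overlap between these classes. Fibroblast-like and VSMC-like cells had medians of 1.87 and 1.61 CPM, and the order between them changed from library to library.

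The 2 fatty acid binding proteins shared the endothelial maximum but not the order below it. Fabp4 had a median of 12327 CPM in endothelial-like cells, with a range of 9758 to 17855 CPM. VSMC-like cells followed at 157 CPM (72.3 to 231 CPM), and exceeded fibroblast-like cells, at 42.1 CPM (7.03 to 101 CPM), in 6 of 6 libraries. Fabp5 had a median of 847 CPM in endothelial-like cells, with a range of 722 to 1720 CPM. VSMC-like cells were the lowest class for Fabp5, at 32.8 CPM (26.6 to 50.5 CPM), below fibroblast-like cells at 87.9 CPM (48.3 to 125 CPM) in 6 of 6 libraries. The fibroblast-like and leukocyte-like ranges of Fabp5 overlapped.

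Apoe was abundant in both fibroblast-like and leukocyte-like cells. Fibroblast-like cells had a median of 3323 CPM, from 2112 CPM in library 1 to 4595 CPM in library 2, and leukocyte-like cells 2690 CPM, from 1097 to 4514 CPM. These ranges overlapped, and in library 2 the values were 4595 and 4514 CPM. When the 5% of cells with the highest doublet score were left out, Apoe no longer led in fibroblast-like cells in every library, and the number of members highest in that class was 1, Lrp1. Endothelial-like cells had 458 CPM (325 to 833 CPM) and VSMC-like cells 170 CPM (69.4 to 307 CPM), and neither range overlapped the next class.

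Lrp1, a receptor for Apoe-bearing remnants, was highest in fibroblast-like cells at 523 CPM, with a range of 483 to 638 CPM. VSMC-like cells had 136 CPM, with a narrow range of 100 to 147 CPM, which overlapped neither neighbour in the order. Leukocyte-like cells had 84.9 CPM (11.8 to 89.7 CPM). Of their 260 UMIs 102 were in 38 cells led by Ankrd1, Sparcl1 and Col1a1, at 264 CPM, and the doublet caller marked 42.1% of these cells. Endothelial-like cells had 86 UMIs in all, with a median of 14.0 CPM and none in libraries 2 and 6. Of these UMIs 67 were in 48 cells led by Col1a1, of which the caller marked 18.8%.

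Abca1, the cholesterol exporter, was low in all 4 classes. Leukocyte-like cells had a median of 34.8 CPM (18.7 to 42.2 CPM), endothelial-like cells 23.3 CPM (16.1 to 36.5 CPM) and fibroblast-like cells 17.3 CPM (16.4 to 29.2 CPM), and these ranges overlapped. VSMC-like cells, at 3.93 CPM (2.94 to 4.84 CPM), were below every value of the other classes.

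To compare shares of cells across depths, each cell was thinned to 3000 UMIs, which left out 142 endothelial-like, 1228 fibroblast-like, 100 leukocyte-like and 567 VSMC-like cells. Median depths before thinning were 4588, 6112, 5168 and 7202 UMIs for these classes. Brackets give exact binomial 95% intervals, which cover counting error only. Gpihbp1 was found in 59.2% of thinned endothelial-like cells (53.9% to 64.3%; 66.7% unthinned) and in 0.0916% of VSMC-like cells (0.0419% to 0.174%; 0.144% unthinned). Cd36 was found in 62.2% of endothelial-like cells (57.0% to 67.3%; 65.9% unthinned) against 17.2% of leukocyte-like cells (13.8% to 21.1%; 25.2% unthinned) and 0.553% of fibroblast-like cells (0.429% to 0.700%; 0.872% unthinned). Both shares in endothelial-like cells were thus above those of the other classes beyond counting error.

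Fabp4 was found in 29.3% of thinned VSMC-like cells (28.5% to 30.3%; 44.6% unthinned), against 6.48% of fibroblast-like cells (6.05% to 6.93%; 10.4% unthinned) and 6.94% of leukocyte-like cells (4.76% to 9.70%; 10.4% unthinned). The share in VSMC-like cells was thus above that of the other 2 classes beyond counting error, at the same number of UMIs. Lrp1 was found in 73.1% of fibroblast-like cells (72.3% to 73.9%; 88.7% unthinned) and in 30.6% of VSMC-like cells (29.7% to 31.5%; 56.2% unthinned), with 5.83% of endothelial-like cells (3.65% to 8.78%; 8.17% unthinned) as the lowest class. Apoe was found in 83.8% of fibroblast-like cells (83.2% to 84.5%; 88.8% unthinned) and 58.2% of leukocyte-like cells (53.4% to 62.8%; 61.4% unthinned), with VSMC-like cells lowest at 19.3% (18.5% to 20.1%; 32.3% unthinned). Lpl was found in 31.0% of fibroblast-like cells (30.2% to 31.8%; 44.0% unthinned) and 27.8% of endothelial-like cells (23.2% to 32.7%; 36.9% unthinned), whose intervals overlapped, against 3.17% of VSMC-like cells (2.83% to 3.53%; 6.23% unthinned).

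The study clustered its VSMCs into VSMC1 and VSMC2, looked at Tes, Ptprz1, Enpep and Notch3 in them afterwards, and asks how the regions of the proximal aorta differ. Here the VSMC-like cells were clustered again without these 4 genes. A split into just 2 such subclusters, each with 5% of the cells or more, appeared at no resolution, and the lowest resolution, with 3, was used. They held 7747 Tes-high cells (Tes at 119 and Enpep at 20.0 CPM), 2012 Enpep-high cells (17.5 and 132 CPM) and 631 Rgs5-high cells, whose Rgs5 level was 4410 CPM. The Rgs5-high cells had Tes at 162 and Enpep at 6.41 CPM, so a high Tes level is not particular to the cells named by it. The Enpep-high cells stand closest to VSMC2 by the 4 genes, but cardiomyocyte and fibroblast genes were among the genes that led them, so they are called by Enpep.

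Of the 8 members, 5 reached 10 CPM in VSMC-like cells. Lpl did so through the Enpep-high cells, at 51.2 CPM against 4.92 CPM in the Tes-high cells, pooled over libraries. Its place in the following count thus rests partly on this limit. Apoe, Lpl and Fabp5 were higher in Enpep-high than in Tes-high cells in all 6 libraries, a pattern of 13.5% of 7702 genes. Fabp4 was lower in all 6 libraries, as were 21.8% of the genes, and Lrp1 had no common direction. Cd36, Abca1 and Gpihbp1 were below the limit, at 3.50, 3.75 and 0.316 CPM in VSMC-like cells. Within each library Cd36 was still higher in Enpep-high than in Tes-high cells. Its medians were 5.43 CPM (1.12 to 36.9 CPM) and 0.580 CPM (0.247 to 3.34 CPM), and these ranges overlapped. In library 2 each level rested on 3 UMIs. Of its 197 UMIs in Enpep-high cells, 61 were in 17 cells led by cardiac genes. Of the finer subclusters described below, that led by Cygb, Dcn and Lum held 111 Cd36 UMIs, and 680 of its 699 cells were Enpep-high. Those led by Ankrd1 and by Olfr558 held 11 and 18.

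Apoe had a median of 610 CPM in Enpep-high cells, with a range of 354 to 1004 CPM, against 67.4 CPM in Tes-high cells, with a range of 29.8 to 111 CPM. The ranges did not overlap, and the median log2 ratio was 3.36 (2.53 to 4.02). Lpl had 43.0 CPM (31.1 to 75.2 CPM) against 4.24 CPM (2.72 to 8.90 CPM), again without overlap, and its median log2 ratio was 3.22 (2.74 to 3.996). Fabp5 had 49.9 CPM (37.6 to 92.1 CPM) against 28.4 CPM (24.9 to 34.7 CPM), with a smaller log2 ratio of 0.82 (0.53 to 1.41). For these 3 genes every library of Enpep-high cells was above every library of Tes-high cells.

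Fabp4 went the other way, at 112 CPM (46.3 to 222 CPM) in Enpep-high and 170 CPM (85.0 to 242 CPM) in Tes-high cells, with a log2 ratio of -0.67 (-1.31 to -0.12). The ranges overlapped, and within each library the Tes-high cells had the higher value. This count of libraries depended on the method. With per-cell means no member was lower in all 6 libraries, and the Fabp4 ratio was -0.35. Without the 5% of cells with the highest doublet score the only such member was Lrp1 in place of Fabp4, whose ratio was -0.58. Lrp1 had 134 CPM (71.9 to 164 CPM) and 132 CPM (105 to 146 CPM), with the ratio above 0 in 2 and below 0 in 4 libraries. In Rgs5-high cells Apoe was at 50.1 CPM (38.9 to 62.3 CPM), Lpl at 2.02 CPM (0 to 3.29 CPM) and Lrp1 at 138 CPM (123 to 178 CPM). The Apoe and Lrp1 medians lay within the Tes-high ranges. The Lpl median lay below its Tes-high range of 2.72 to 8.90 CPM, but rested on 9 UMIs in all. Its pooled 95% interval, 0.80 to 3.32 CPM, reached into that range.

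RNA of other cell types moved with this comparison. The 7 fibroblast markers, all detected in both subclusters, summed to 1357 to 5331 CPM per library in Enpep-high and 668 to 1360 CPM in Tes-high cells. The most abundant were Dcn at 1376 CPM in the former and Col1a1 at 722 CPM in the latter. The 8 cardiomyocyte markers, also all detected in both, summed to 43.0 to 916 CPM against 29.2 to 46.8 CPM, and the most abundant were Actc1 at 91.6 and Ryr2 at 30.5 CPM. The doublet caller marked 6.41% of the Enpep-high cells and none of the Tes-high cells. Their part in these differences was not tested beyond the values given without such cells.

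Finer clustering of the same cells placed these markers. The Enpep-high cells were made up mainly of 736 cells of a subcluster led by Ankrd1, Col8a1 and Palld, 680 of one led by Cygb, Dcn and Lum, 566 of one led by Olfr558, Pgam2 and Rasd1, and 17 cells led by the cardiac genes Myl3, Myl7 and Myh6. In the Cygb-led subcluster the fibroblast markers summed to 7495 CPM and the doublet caller marked 18.3% of the cells, whereas they summed to 879 and 430 CPM in the Ankrd1-led and Olfr558-led cells.

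Without the Cygb-led and cardiac-led cells, an alternative added after seeing the data, the directions of Apoe, Lpl, Fabp5 and Fabp4 held in 6 of 6 libraries, and Lrp1 became lower in 6 of 6. Then 11.5% of the genes were higher and 24.8% lower in all libraries. The median log2 ratio of Apoe fell to 1.78 (0.65 to 2.99), that of Lpl to 2.63 (1.46 to 3.27), and that of Fabp5 was 0.75 (0.45 to 1.27). Those of Fabp4 and Lrp1 were -1.10 (-1.47 to -0.65) and -0.88 (-0.99 to -0.57). The Apoe and Lpl differences were thus smaller and those of Fabp4 and Lrp1 larger without these cells.

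**Figure D2:**
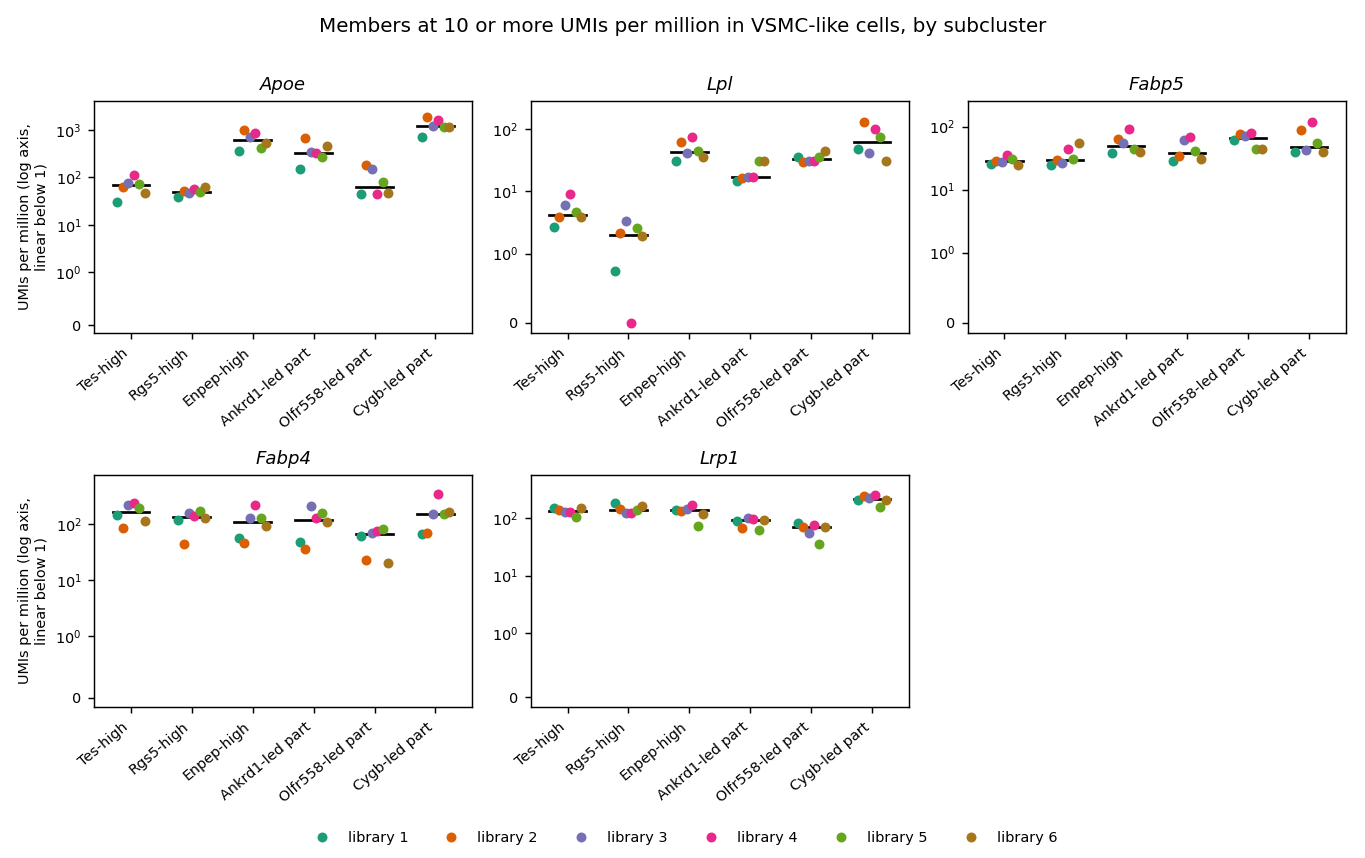
Levels per library, in CPM on an axis logarithmic above 1 and linear below it, of the 5 members at 10 CPM or more in the 3 main VSMC subclusters and in the 3 larger parts of the Enpep-high cells, with bars at the medians. Apoe was highest in the Cygb-led part, whereas Lpl was above its Tes-high values in all 3 parts.

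The parts of the Enpep-high cells differed from each other. In Ankrd1-led cells Apoe had a median of 329 CPM (153 to 674 CPM), and in Olfr558-led cells 63.2 CPM (44.7 to 182 CPM), near the 67.4 CPM of the Tes-high cells. Lpl had 17.1 CPM (14.5 to 31.0 CPM) in Ankrd1-led and 33.3 CPM (29.9 to 44.6 CPM) in Olfr558-led cells. Fabp5 had 37.6 CPM (27.9 to 67.9 CPM) and 65.6 CPM (43.3 to 77.6 CPM), and Lrp1 91.4 CPM (62.4 to 99.1 CPM) and 69.2 CPM (35.4 to 81.0 CPM). Fabp4 had 119 CPM (36.3 to 218 CPM) and 66.3 CPM (20.4 to 83.0 CPM). Within this pair Apoe was above the Tes-high median mainly in the Ankrd1-led cells, and Lpl in both. In Cygb-led cells Apoe reached 1187 CPM (701 to 1845 CPM) and Lpl 61.05 CPM (30.3 to 129 CPM). Early response genes, which tissue dissociation is known to induce, also differed, and their list of 17 genes summed to 17442 CPM in Ankrd1-led and 32490 CPM in Olfr558-led cells, against 15224 CPM in the Tes-high cells. Their part in these levels was not tested.

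Among the other finer subclusters, cells led by the class II genes Cd74, H2-Aa and H2-Eb1 had Apoe at 228 CPM (79.2 to 446 CPM), with fibroblast markers at 2741 CPM. The 17 cardiac-led cells came from libraries 3, 4 and 5, with 6, 9 and 2 cells, and held Cd36 at 441 CPM and Lpl at 535 CPM, while Lrp1 and Abca1 had no UMI in them. Their cardiomyocyte markers summed to 27582 CPM. In the subcluster led by S100a9, Tes and Krt18, the largest with 2509 cells, Fabp4 was at 173 CPM (94.8 to 262 CPM) and Apoe at 37.6 CPM (23.3 to 61.9 CPM).

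The endothelial-like cells were clustered on their own into 5 subclusters. A marker counted for a subcluster where its level was 1.5 times the median subcluster. A Car4-high subcluster of 163 cells met this for 5 of 6 capillary and 4 of 7 blood vessel markers, but adipocyte genes were among the genes that led it. An Ackr1-high subcluster of 126 cells met it for 3 of 4 venous and 3 of 7 blood vessel markers, and 113 lymphatic-like cells for 6 of 6 lymphatic markers. A Hapln1-high subcluster of 52 cells, of which 40 came from library 3, met it for 3 of 5 endocardial and valve markers. The last, of 48 cells led by Col1a1, Col1a2 and Fbln1, had 18.8% of its cells marked by the doublet caller and is given no type.

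The Car4-high and Ackr1-high cells together were compared with the lymphatic-like cells in libraries 2 to 5, which held at least 5 cells of each. All 8 members reached 10 CPM in endothelial-like cells, but Lrp1 did so through the Col1a1-led cells, and was at 6.26 CPM in the Car4-high and Ackr1-high and 9.70 CPM in the lymphatic-like cells, pooled over libraries. Of these, 6 were higher in the Car4-high and Ackr1-high cells in all 4 libraries, against 15.4% of 8525 genes, and 0 were lower in all 4, against 13.7%. The exceptions were Abca1 and Lrp1. Cd36 and Fabp5 were at 1.94 and 7.76 CPM in the lymphatic-like cells, pooled over libraries, and reached 10 CPM through other cells. Their place in this count thus rests partly on the limit. Over libraries, the 7 fibroblast markers summed to 280 CPM in the Car4-high and Ackr1-high and 619 CPM in the lymphatic-like cells. In the same order, the 8 cardiomyocyte markers summed to 142 and 7.76 CPM, and the early response genes to 33890 and 28011 CPM.

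Cd36 was at 1703, 3745, 3453 and 2728 CPM in the Car4-high and Ackr1-high cells of libraries 2 to 5, and the 113 lymphatic-like cells held 1 UMI of it. Fabp5 was at 802, 1091, 1151 and 773 CPM in the same libraries, and the lymphatic-like cells held 4 UMIs. Fabp4 was at 15619, 38484, 30276 and 17860 CPM against 237, 380, 224 and 1095 CPM. The ranges of these 3 genes of fatty acid uptake and binding did not overlap between the groups.

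Gpihbp1 was also higher there, at 1922, 2325, 1786 and 1246 CPM, but the lymphatic-like cells held 94 UMIs of it. Their values were 384, 42.2, 247 and 0 CPM in libraries 2 to 5. Of the 113 lymphatic-like cells, 44 had a Gpihbp1 UMI, and at most 10 UMIs were in 1 cell. With 1 Cd36 UMI in all of them, at most 1 cell could hold both genes, and 0 did. After thinning, 29.7% of 74 lymphatic-like cells (19.7% to 41.5%; 38.9% unthinned) had Gpihbp1, against 0.0916% of VSMC-like cells, and 1.35% (0.0342% to 7.30%; 0.885% unthinned) had Cd36. Gpihbp1 was therefore found in these cells without Cd36. Without the 5% of cells with the highest doublet score, 76 Gpihbp1 UMIs were left in 99 lymphatic-like cells, 75 of them in library 4, so the other libraries give this little weight.

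Lpl was at 204, 543, 355 and 155 CPM in Car4-high and Ackr1-high cells, and the lymphatic-like cells held 9 UMIs. Within this pair Lpl had a median of 526 CPM (176 to 683 CPM) over libraries 1 to 5 in Car4-high cells and 90.0 CPM (29.8 to 214 CPM) in Ackr1-high cells. These ranges overlapped, but within each of libraries 1 to 5 Lpl was higher in the Car4-high cells. In library 5 the Lpl values of 176 and 145 CPM did not differ beyond counting error. The medians of its anchor Gpihbp1 followed the same order, at 2441 CPM (1962 to 2710 CPM) and 1080 CPM (780 to 1245 CPM), without overlap. Of the thinned cells of the pair, 73 held both Lpl and Gpihbp1 and 2 held Lpl alone, so that 97.3% of the cells with Lpl had Gpihbp1, against 70.5% of those without it.

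Adipocyte genes stood out in the Car4-high cells. Of 10 adipocyte markers 9 were detected, all but Lep, and they summed to 21.0, 454, 502, 530 and 452 CPM in libraries 1 to 5, with Cfd the most abundant at 204 CPM. In Ackr1-high cells 7 were detected and summed to 44.3 CPM, and in lymphatic-like cells 1, at 3.88 CPM. Without the cells that held a UMI of Adipoq, Cfd or Car3, an alternative added after seeing the data, 112 Car4-high cells remained and their adipocyte markers summed to 97.3 CPM. Fabp4 was then at 28778 CPM against 33291 CPM in all 163 cells, Cd36 at 3231 against 3515 CPM, Lpl at 449 against 482 CPM and Gpihbp1 at 2266 against 2363 CPM. In library 1, where the markers were at 21.0 CPM, Car4-high cells had Fabp4 at 25940 CPM and Lpl at 537 CPM.

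Apoe was at 753, 521, 390 and 362 CPM in Car4-high and Ackr1-high cells of libraries 2 to 5 and at 88.7, 52.8, 51.3 and 26.7 CPM in the lymphatic-like cells. Abca1 had 7.04, 42.6, 22.7 and 14.8 CPM against 88.7, 21.1, 73.7 and 26.7 CPM, on 26 and 30 UMIs. It was lower in 3 of 4 libraries, with library 3 the exception. In libraries 2 and 5 this rested on 1 against 3 and on 4 against 2 UMIs, with overlapping 95% intervals. Only in library 4, with 13 against 23 UMIs, was Abca1 lower beyond counting error. Lrp1 had 7 and 5 UMIs, too few for an order.

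**Figure D3:**
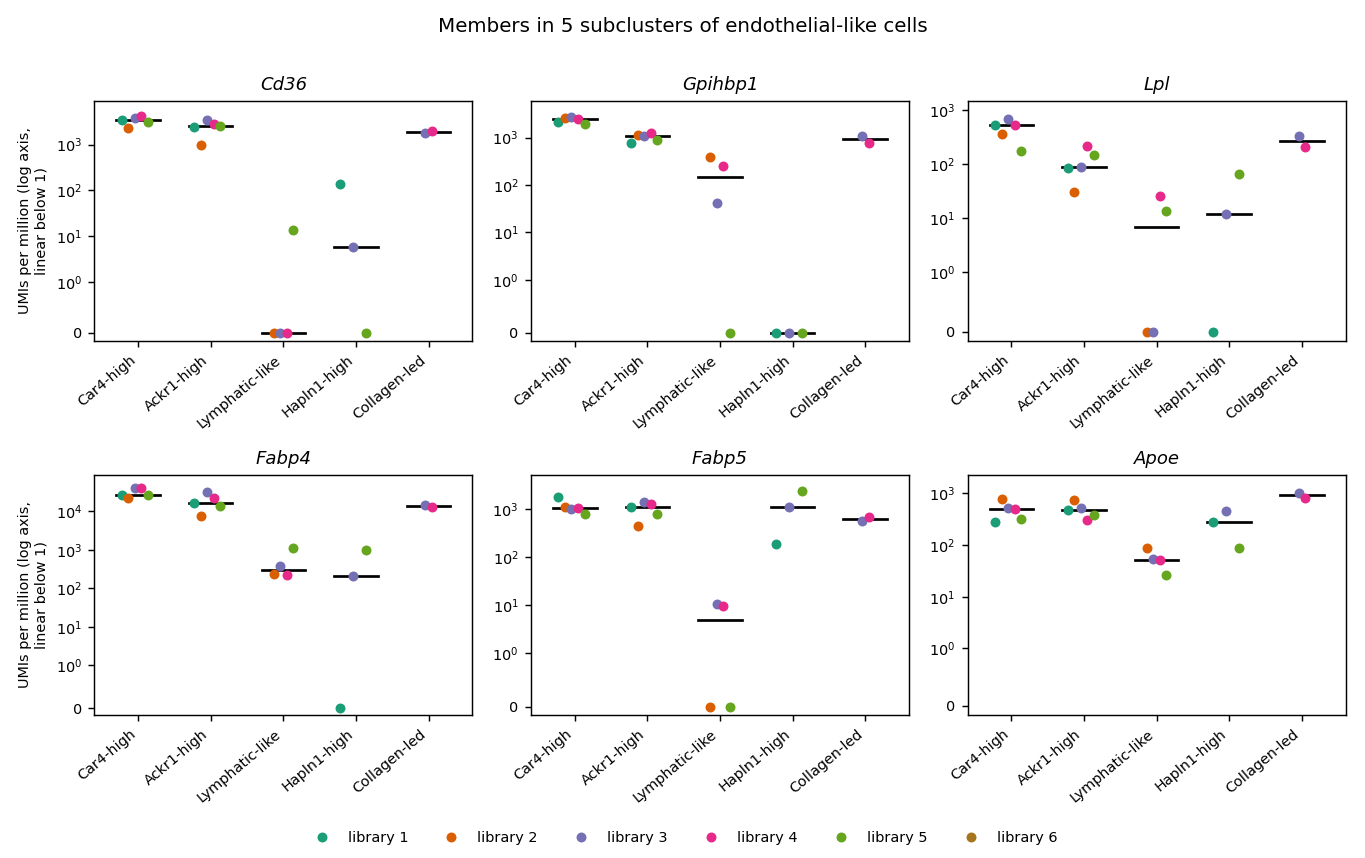
Levels per library with at least 5 cells of the subcluster, in CPM on an axis logarithmic above 1 and linear below it, of 6 members in the 5 endothelial-like subclusters, with bars at the medians. Cd36, Gpihbp1 and Fabp4 were high in Car4-high, Ackr1-high and Col1a1-led cells, whereas Fabp5 was also high in 2 of 3 libraries of Hapln1-high cells.

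The Col1a1-led cells, which the doublet caller marked often, had at least 5 cells in libraries 3 and 4 only. Their medians were 1896 CPM for Cd36, 914 CPM for Gpihbp1, 14008 CPM for Fabp4 and 269 CPM (212 to 326 CPM) for Lpl.

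In Hapln1-high cells Fabp5 was found with few UMIs of Cd36, mainly in library 3. Fabp5 was at 182, 1100 and 2330 CPM in libraries 1, 3 and 5, with 5, 40 and 5 cells. Fabp4 was at 0.000, 208 and 1011 CPM and Cd36 at 137, 5.85 and 0 CPM in the same libraries. In library 1 the Fabp5 and Cd36 levels rested on 4 and 3 UMIs only. Gpihbp1 had no UMI in the 52 cells, where 3 UMIs of the total would be 7.09 CPM and the exact 95% interval reaches 8.72 CPM. After thinning, 35.3% of 51 Hapln1-high cells (22.4% to 49.9%; 50.0% unthinned) had Fabp5 and 3.92% (0.478% to 13.5%; 5.77% unthinned) had Cd36, whereas 84.5% (75.8% to 91.1%; 86.5% unthinned) and 93.8% (87.0% to 97.7%; 97.6% unthinned) of Ackr1-high cells did. Library 3 gave most of these cells, and its fibroblast markers in them summed to 6901 CPM, led by Dcn. The part of that RNA was not tested.

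Fibroblast-like clusters differed in Apoe, Lpl, Fabp5 and Lrp1. Apoe ranged from a median of 1974 CPM (756 to 2638 CPM) in the cluster led by Cytl1, Cst6 and Pthlh to 5537 CPM (4222 to 7310 CPM) in that led by Ptn, Igfbp3 and Gucy1a1. The latter also had the highest median of Lpl, 348 CPM (287 to 504 CPM). The largest cluster, led by Has1, Ly6c1 and Cxcl14, had Lpl at 309 CPM (184 to 350 CPM) and the highest Lrp1, 621 CPM (578 to 796 CPM). The cluster led by Cd74, H2-Eb1 and Coch had the highest median of Fabp5, 243 CPM (151 to 317 CPM), and the lowest of Lrp1, 263 CPM (237 to 340 CPM), of which only Lrp1 did not overlap the other clusters. Its Lpl, at 62.2 CPM (21.8 to 106 CPM), overlapped that of the Cytl1-led cluster, at 78.8 CPM (39.0 to 99.4 CPM).

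Among leukocyte-like subclusters, that led by Cd209f, Cd209g and Lyve1, genes known from resident macrophages, had the highest medians of Apoe, at 5483 CPM (3966 to 11744 CPM), and Abca1, at 66.4 CPM (25.2 to 121 CPM), over 6 libraries. Other subclusters overlapped these ranges, with single libraries at up to 6238 CPM for Apoe and 133 CPM for Abca1. A subcluster led by Cxcr6, Icos and Gimap3, known from T cells, had no UMI of Abca1, Cd36 or Lpl in 74 cells, and Fabp5 at 166 CPM (53.3 to 274 CPM). A subcluster of 31 cells led by Ccl5, Epcam and Itgae had Cd36 at 210.5 CPM pooled over libraries, with Apoe at 18.1 CPM.

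The wider lists held 100 further lipid genes in the files. Of 65 that reached 10 CPM in a class, 9 were highest in endothelial-like cells in all 6 libraries, 7 in fibroblast-like, 8 in leukocyte-like and 6 in VSMC-like cells. Over all 10514 genes these numbers were 786, 818, 1024 and 1001. The endothelial ones included the scavenger receptor Scarb1 (median 156 CPM), the caveolin Cav1 (1448 CPM) and Mgll (505 CPM), which cleaves monoacylglycerols. The VSMC ones included the receptor Vldlr (75.2 CPM), the fatty acid binding protein Fabp3 (48.8 CPM) and the lipid droplet protein Plin4 (75.6 CPM). The leukocyte ones included the scavenger receptors Msr1 (80.8 CPM) and Stab1 (188 CPM). These examples were chosen after their values were seen.

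Between Enpep-high and Tes-high cells, 1 of 41 tested genes of the wider lists was higher and 12 were lower in all 6 libraries, against 13.5% and 21.8% of 7702 genes. Their median log2 ratio was -0.11, beside -0.05 over all genes tested. The largest median ratios were those of Acsl5, a fatty acyl-CoA synthetase, at 0.49 (6 of 6 libraries higher), Soat1, which esterifies cholesterol, at 0.42 (5 of 6) and Lrp5 at 0.35 (5 of 6). Among the smallest were those of the sorting receptor Sorl1 at -0.88 and of Plin4 at -0.54, both higher in 0 of 6 libraries. At the minimum of 10 CPM the wider lists thus did not share the higher levels of Apoe and Lpl. The number higher was 0 at 50 CPM and 14 with no minimum, where the median ratio was -0.26 and 0, so this depended on the minimum. The share of 13.5% holds for 10 CPM only, so these 2 numbers cannot be set against all genes.

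Between the Car4-high and Ackr1-high cells and the lymphatic-like cells, 17 of 49 tested genes of the wider lists were higher and 5 lower in all 4 libraries, against 15.4% and 13.7% of 8525 genes. Their median log2 ratio was 0.34, beside -0.00057 over all genes. That median was 1.09 with a minimum of 50 CPM and 0 with none, and the number lower was 3 at 50 CPM, 8 without library 2 or 5 and 9 without the highest doublet scores. The share of 13.7% holds for the main setting only, so these numbers cannot be set against all genes. The largest ratios were those of Scarb1, Tcf15, a partner of Meox2 in heart capillaries, and the hormone-sensitive lipase Lipe, each higher in 4 of 4 libraries. The lymphatic-like cells held 0, 3 and 4 UMIs of them, so the size and order of these ratios depended on the added 0.5 UMI. Tcf15 and Meox2, both in the wider lists, are also capillary markers. Among the smallest were those of Stab1 at -2.35 and Soat1 at -1.77, higher in 0 and 1 of 4 libraries, the latter on 9 and 13 UMIs only. Pparg, the nuclear receptor that induces Fabp4 and Cd36 in other tissues, had a ratio of 2.14 and was higher in 4 of 4, and it was named after its value was seen.

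Across 32 subclusters of the 4 classes, pooled over libraries, the genes most like each member were found by Pearson's r of log2(CPM + 1) among 13376 genes. These points share libraries and differ in depth, and r is a description only. Gpihbp1 was most like 4930578C19Rik (0.98), Btnl9 (0.98) and Rtp3 (0.97), and Fabp4 most like 8430408G22Rik (0.93), Jag2 (0.91) and Mmp15 (0.90). Cd36 was most like Cd300lg (0.84), Lipe (0.81) and Parvb (0.80). Fabp5 was most like Lrrc8c (0.89), Sp100 (0.79) and Cenpt (0.79). Lrp1 was most like Colec12 (0.96), Col14a1 (0.95) and Snx18 (0.92), and Apoe most like Syp (0.90), Angptl7 (0.89) and Igf1 (0.87). Lpl was most like Egr2 (0.85), Il15 (0.78) and Nab2 (0.78), and Abca1 most like Dab2 (0.91), Ptgs1 (0.88) and Sdcbp (0.88). Among the members, Fabp4 and Gpihbp1 had the highest r, 0.86, whereas Fabp4 and Fabp5 had 0.40.

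In mm10 by GENCODE M21, Fabp4 lies on the minus strand at chr3:10204088-10208576 and Fabp5 on the plus strand at chr3:10012548-10016607, with 187480 bases between them. Gpihbp1 lies at chr15:75596628-75599481, Lpl at chr8:68880491-68907448, Cd36 at chr5:17781690-17888801, Apoe at chr7:19696109-19699188, Abca1 at chr4:53030787-53159895 and Lrp1 at chr10:127538161-127621148. Lrp1 overlaps Gm16217, annotated on the opposite strand, and no other member overlaps an annotated gene.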

How the data were processed

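Per the methods, cells of each mouse were processed separately with the 10x Genomics 3′ v3 platform. Cell Ranger 6 was used for alignment to mm10 and for aggregation. The matrix header names cellranger 4.0.0. The deposited values are raw UMI counts per gene and barcode, with no normalization by the authors. Cells with 1000 to 5000 genes, 1500 to 25000 UMIs and a mitochondrial share under 20% were kept.

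Counts were normalized by SCTransform (sctransform 0.4.2) and integrated by suffix by RPCA in Seurat 5.3.0 on 30 components, with clusters at a resolution of 0.25. Endothelial-like cells were log-normalized and clustered on 15 components at 0.5. VSMC-like cells were clustered again at resolutions from 0.05 up to 1. The design asked for exactly 2 VSMC subclusters, which no resolution gave. The one with the highest Enpep and Notch3 over Tes and Ptprz1 and the largest of the others were compared, a choice made after seeing the data. A name needed 3 markers, each in 10% of the cells and 1.5 times above the median cluster.

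UMIs were summed per unit and library, and 0.5 UMI, scaled by the totals, was added before log2 ratios. Libraries with under 5 cells of a unit gave no ratio. Genes needed 10 CPM in a class, and for ratios in all VSMC-like or all endothelial-like cells, not in each subcluster. No test of a difference between groups was run, as set in the design. Only outlying libraries were screened, by Dixon's test of the gap to the nearest value over the range, in 31 sets of library values. CTL and LDS could not be compared because the libraries could not be tied to mice, and differences within libraries are described by their values and numbers of libraries. The ratios were checked on simulated counts. Doublets were scored with scrublet in scanpy 1.11.5 and kept in the main values. The caller marked 0.089% of the 5611 cells of library 5, too few to rely on there, and 0.49% to 1.923% in the others. From the wider lists, the named genes were the top 3 and bottom 3 by median ratio, and for each member the 3 genes with the highest r. One gene that this rule named is not reported here. Alternatives covered single libraries, doublets, mitochondrial share, the CPM denominator, per-cell means, normalization, clustering genes, centring, the prior, resolution and gene minimum. The members and lists were chosen with earlier results of these data known.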

Additional observations from a re-analysis of the deposited data

Results flagged for a closer look

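In 31 sets of 6 library values, 3 held a library far from the others, where chance flags about 1 in 20. Fabp5 in leukocyte-like cells was at 327 CPM in library 6, on 273 UMIs of 118 cells, and the next library was at 124 CPM. Of these UMIs 155 came from 15 cells of the subcluster led by Camp, Ngp and Chil3 and 74 from 4 cells of that led by Ccl5, Epcam and Itgae. Lrp1 in leukocyte-like cells was at 11.8 CPM in library 2, on 4 UMIs of 44 cells, and the next was at 74.2 CPM. Lrp1 in VSMC-like cells was at 100.4 CPM in library 5, and the next was at 130 CPM.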

How the results depend on the processing

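No paired analysis was possible because the deposited columns carry no mouse or replicate number, which bars pairs of CTL and LDS mice, whereas subcluster ratios were taken within each library. In 20 alternative settings, 172 results that count genes or give a list's median stayed close to the main value and 27 moved, and of the values for single genes 202 stayed, 18 moved and 4 changed sign. The numbers of members highest in endothelial-like cells, and of those higher in Enpep-high or in Car4-high and Ackr1-high cells, were the same in every setting run for them. The Enpep-high number does depend on the minimum. Lpl and Fabp5 were at 13.7 and 34.8 CPM in all VSMC-like cells, and would not be counted at a minimum of 50 CPM. The ratios of the members could move, and that of Apoe in Enpep-high cells fell from 3.36 to 1.78 without the gene-led cells.

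Members highest in fibroblast-like cells numbered 1 without the highest doublet scores, with per-cell means, and without cells with Adipoq, Cfd or Car3. Members lower in Enpep-high cells numbered 0 with per-cell means, 2 with log-normalized counts and 2 without the fibroblast- and cardiomyocyte-gene-led cells. Without the highest doublet scores the number stayed at 1, but the member was Lrp1 and no longer Fabp4. Leaving out a library gave 0 to 1 members lower in Car4-high and Ackr1-high cells, 1 being Abca1 without library 3.

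Of the wider lists, the number higher in Enpep-high cells was 1 to 2 over the left-out libraries, 0 with log-normalized counts, at 50 CPM and without the gene-led cells, 2 when centred, and 14 with no minimum. The median log2 ratio was -0.28 with log-normalized counts, -0.26 at 50 CPM, 0 with no minimum and -0.21 without the gene-led cells. The number lower in Car4-high and Ackr1-high cells was 5 to 8 over the left-out libraries, being 8 without library 2 or 5, 9 without the highest doublet scores and 3 at 50 CPM. Its median log2 ratio was 1.09 at 50 CPM and 0 with no minimum. With no minimum, 11 were highest in fibroblast-like cells. Apart from the setting without the gene-led cells, these numbers have no share over all genes beside them.

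Lrp1 in Car4-high and Ackr1-high over lymphatic-like cells changed sign to 0.047 without the highest doublet scores and to 0.40 at a resolution of 0.3, from a main value of -0.39 on few UMIs. Abca1 in Enpep-high over Tes-high cells turned from 0.25 to -0.20 with log-normalized counts and to -0.14 without the gene-led cells. The cause was not tested. The 5 endothelial-like cells of library 6 limit its class values.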
